A study of Mus musculus with 6 samples.

Results

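The aryl hydrocarbon receptor (AhR) battery was examined on 6 one-colour microarrays of mouse liver, ovary and uterus. The set is defined by gene name and holds 7 of the 20284 genes with a symbol on the array: *Ahr*, *Arnt*, *Ahrr*, *Cyp1a1*, *Cyp1a2*, *Cyp1b1* and *Tiparp*. They were measured by 11 probes, 2 each for *Ahr*, *Arnt*, *Ahrr* and *Tiparp* and 1 each for the cytochrome P450 genes. No measured value entered the choice of the genes, but results of these data were known when it was made.

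The AhR is a transcription factor that waits in the cytoplasm bound to heat-shock protein chaperones. Planar aromatic ligands, such as dioxins and polycyclic aromatic hydrocarbons, send it to the nucleus, where it pairs with the partner protein ARNT and binds short xenobiotic response elements near its target genes. *Cyp1a1* is the classical read-out of that pathway because ligand raises it steeply in liver and in many other tissues, while the AhR repressor (*Ahrr*) and the ADP-ribosyltransferase *Tiparp* are induced by the receptor and restrain it. Fluorene-9-bisphenol (BHPF) is a bisphenol built on an aromatic fluorene core, and the comparison asks whether the genes driven by this receptor differed between dosed and control mice in any of the tissues.

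The mice were immature CD-1 females, an outbred stock, with an age of 24 days per the labels. The BHPF group received 50 mg/kg body weight by daily gavage for 3 days, and the control group received the peanut oil vehicle. Each array held RNA pooled from 3 mice, and each tissue had 1 control array and 1 BHPF array. There was no second pool, so no p value and no spread between animals exists within a tissue. The tissues were collected from the mice of each group, so the arrays of 1 treatment can share animals and the tissues are not independent samples. The control arrays occupied one row of a single slide and the BHPF arrays another, so array position and treatment cannot be told apart. Uterine values follow the sample labels of the scanner files. In a table of values that was also deposited, the columns for control and BHPF uterus hold each other's array. Which of these labels is right was not settled, and with the headings of the table all 7 uterine ratios of the battery have the opposite sign.

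Levels are given as the log2 intensity of a probe minus the log2 of the 75th percentile of its array, so that 0 is the 75th percentile, and a difference of levels is a log2 ratio of BHPF to control. Between 61.4% and 74.6% of the 55681 probes were well above background on an array. Repeated spots of one probe gave a log2 ratio an SD of 0.16 from the array surface alone, and 2 SD (0.32) was used as a guide to technical noise. The SD is that of a ratio of single spots, so the guide is wide for a mean over 2 probes. All 24 hepatocyte markers were well above background on both liver arrays, all 17 ovary markers on both ovary arrays, and all 15 smooth muscle and stroma markers and all 10 epithelium markers on both uterus arrays. Detection alone does not tell the tissues apart. On both ovary arrays 23 of the 24 hepatocyte markers were also well above background, and all 10 epithelium markers were on the control liver and control ovary arrays. The markers of other cells were less even, and those that moved with a member are given beside it. Among endothelial markers 0 of 8 changed at least 2-fold in any tissue. Among macrophage and Kupffer cell markers 3 of 11 changed in liver (*Adgre1* and *Marco* lower, *Cd163* higher) and 2 of 10 in ovary (*Adgre1* and *Marco*, lower). In uterus 2 of 10 changed (*Clec4f* and *Vsig4*, higher). Among pancreas markers the counts were 0 of 5, 0 of 8 and 2 of 5 (*Cela1* lower, *Cela2a* higher). Over all genes 4.97% changed 2-fold in liver, 1.2% in ovary and 3.22% in uterus. In tissue RNA, fewer cells of a type and less RNA per cell cannot be told apart.

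The response element is recognised by its core, GCGTG, read on either strand (CACGC on the other). It was searched in RefSeq promoter windows of assembly GRCm38.p6, each from 250 bases before to 50 bases after the transcription start, which were held for 6 of the 7 genes, *Ahr* being the other. The windows of the P450 genes and of *Ahrr* are printed because these genes are the usual read-outs of the receptor. They run 5′ to 3′ along the gene, with the core in capitals. The *Cyp1a1* window is chr9:57697363-57697662 on the plus strand, *Cyp1a2* chr9:57683606-57683905 on the minus strand, *Cyp1b1* chr17:79715012-79715311 on the minus strand and *Ahrr* chr13:74292282-74292581 on the minus strand.
Cyp1a1: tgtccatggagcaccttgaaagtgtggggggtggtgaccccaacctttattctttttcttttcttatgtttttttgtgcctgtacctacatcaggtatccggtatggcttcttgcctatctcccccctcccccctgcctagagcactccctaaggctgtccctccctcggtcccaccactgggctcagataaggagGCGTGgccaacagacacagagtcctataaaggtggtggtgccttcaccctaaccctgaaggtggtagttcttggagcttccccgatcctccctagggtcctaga
Cyp1a2: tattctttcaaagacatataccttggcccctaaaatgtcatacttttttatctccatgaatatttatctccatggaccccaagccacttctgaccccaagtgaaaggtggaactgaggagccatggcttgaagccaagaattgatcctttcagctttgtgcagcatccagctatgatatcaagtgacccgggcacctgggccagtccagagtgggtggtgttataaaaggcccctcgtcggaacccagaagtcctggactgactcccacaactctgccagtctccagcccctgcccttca
Cyp1b1: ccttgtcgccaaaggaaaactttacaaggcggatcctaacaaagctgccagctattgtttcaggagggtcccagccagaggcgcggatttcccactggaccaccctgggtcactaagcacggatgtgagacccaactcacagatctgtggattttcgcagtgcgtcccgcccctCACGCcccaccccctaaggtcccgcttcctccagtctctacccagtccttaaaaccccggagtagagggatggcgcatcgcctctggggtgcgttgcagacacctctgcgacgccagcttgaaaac
Ahrr: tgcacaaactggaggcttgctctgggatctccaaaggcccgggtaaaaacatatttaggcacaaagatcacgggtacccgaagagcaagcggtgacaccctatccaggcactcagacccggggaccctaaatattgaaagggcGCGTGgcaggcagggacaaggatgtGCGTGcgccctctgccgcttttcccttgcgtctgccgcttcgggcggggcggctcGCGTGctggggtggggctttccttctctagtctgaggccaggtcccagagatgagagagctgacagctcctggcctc

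*Ahrr* carried 3 cores, 107, 82 and 27 bases before the start, 1 of them inside the longer motif TNGCGTG. *Cyp1a1* carried 1 core at 54 bases before the start, *Arnt* 1 at 29, *Cyp1b1* 1 at 76 on the other strand and *Tiparp* 1 at 170 on the other strand, while the *Cyp1a2* window held none. The core was in 32.4% of all 32851 windows of this length and TNGCGTG in 5.07%, so a match describes the letters and is not evidence of binding. The best known elements of *Cyp1a1* lie farther upstream than these windows reach.

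**Figure D1:**
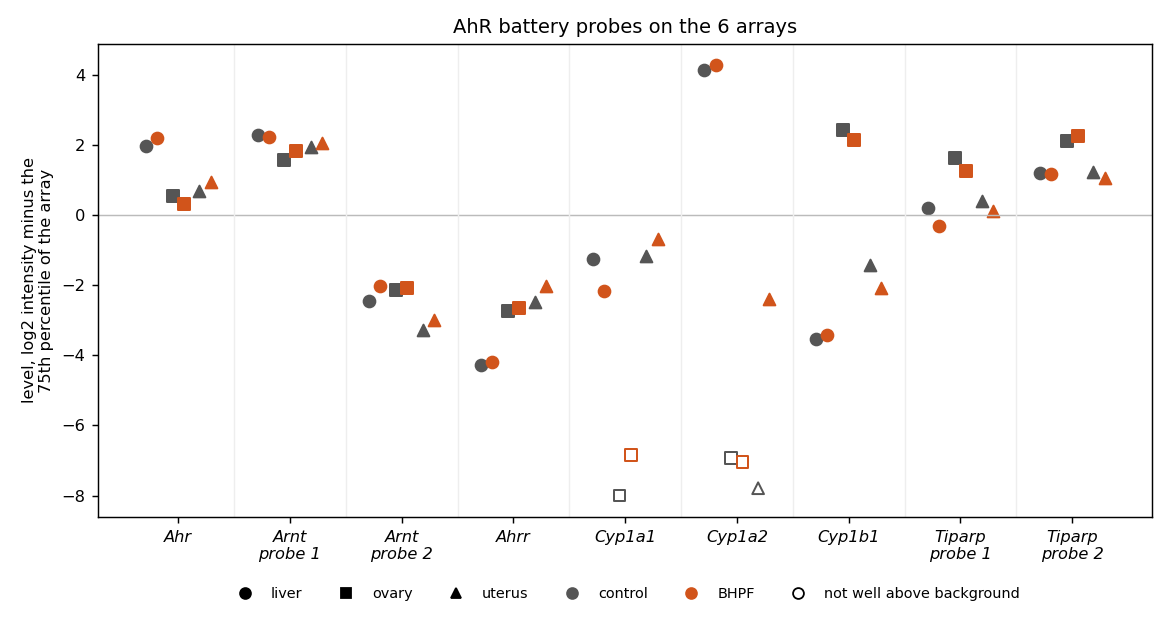
Level of each AhR battery probe on the 6 arrays (y axis, log2 intensity minus the 75th percentile of the array), with 1 point per array of a pool of 3 mice. Shape gives the tissue and colour the treatment, and open points were not well above background. Points of 1 tissue lie close together for most probes, while *Cyp1a1*, *Cyp1a2* and *Cyp1b1* span several log2 units between tissues. The 2 probes that were well above background on no array are not drawn.

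*Cyp1a1*, which oxidises polycyclic aromatic hydrocarbons, was not higher in the BHPF liver. Its liver level was −1.24 in the control pool and −2.17 in the BHPF pool, intensities of 1455 and 731 before scaling. The log2 ratio was −0.93, 1.90-fold lower with BHPF, and 5.67% of the genes evaluated in liver lay at least as far from 0. In uterus the level was −1.16 in the control pool and −0.68 in the BHPF pool, 1.39-fold higher with BHPF, a distance from 0 that 9.74% of evaluated uterine genes reached. On the ovary arrays the probe read 29.4 and 55.8, not well above background in either group, so that no ratio could be given there. As labelled on the scanner files, its ratios thus had opposite signs in liver and uterus, both past 2 SD of spot noise. The difference of 1.41 between them was not tested, and under the headings of the deposited table the uterine ratio is −0.48, the sign of the liver.

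Neutrophil markers moved with the *Cyp1a1* value in liver. Of the 13 neutrophil markers 13 were lower on the BHPF liver array, 10 of them at least 2-fold, with a median log2 ratio of −2.38 and a summed linear level that went from 92.1 to 39.8. *Mmp9*, *Elane* and *Mpo* were not well above background on the BHPF liver array. In ovary 11 of 11 evaluated neutrophil markers were lower, 6 of them at least 2-fold (median −1.23), and in uterus 8 of 12 were lower, 4 at least 2-fold (median −0.61). Their part in the *Cyp1a1* value was not tested. Hepatocyte markers, in contrast, differed by little between the liver arrays, with 0 of 24 changed 2-fold and a median of 0.05.

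*Cyp1a2*, the P450 of caffeine metabolism that hepatocytes express without any inducer, hardly differed between the livers, with levels of 4.13 in the control and 4.26 in the BHPF liver and a log2 ratio of 0.14. On the ovary arrays it was not well above background, at −6.92 and −7.04. The uterus was the exception. The probe read 24.1 on the control uterus array, not well above background, and 868 on the BHPF uterus array, levels of −7.79 and −2.38. Taken against the lowest signal well above background on the control array, the rise was at least 10.7-fold, a log2 ratio of at least 3.42, and 0.519% of evaluated uterine genes lay as far from 0.

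Markers of hepatocytes rose on that same BHPF uterus array. Of 24 markers 23 exceeded their control uterus level 2-fold or more. The log2 ratios of the 24, some of them lower bounds, ranged from 0.35 to 5.75, with a median of 4.27. *Alb*, which encodes serum albumin, went from −0.92 to 3.36 and *Apoa1*, the main protein of high-density lipoprotein, from −4.73 to 0.76. Their summed linear level was 4.45 on the control uterus array and 64.8 on the BHPF uterus array, against 787 in the control liver, and 18 of them were well above background in the control uterus and 24 in the BHPF uterus. On the ovary arrays 0 of 23 changed 2-fold (median 0.15).

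The excess of the BHPF uterus over the control uterus was also expressed as a percentage of the control liver level of each gene. For the hepatocyte markers it had a median of 6.29%, quartiles of 2.25% and 10.1% and a range from 0.537% to 15.6%. *Cyp1a2* had an excess of 1.07% of its liver level, inside the range of the markers and below their lower quartile. *Cyp1a1* had an excess of 41.7% and *Ahrr* of 127%, above every marker, but their control liver levels lay below their control uterus levels. *Ahr* at 7.48% and *Arnt* at 9.61% lay within the marker quartiles. The uterine log2 ratios behind these last values, 0.24 for *Ahr* and 0.19 for *Arnt*, were within 2 SD of spot noise. *Cyp1b1* and *Tiparp* were lower on the BHPF uterus array, with values of −160% and −15.3%. An amount of liver RNA equal to the median share would give 574% of the *Cyp1a2* signal seen on the BHPF uterus array. For the other genes that amount would give 12.8% of the signal of *Ahr*, 8.23% of *Arnt*, 6.87% of *Tiparp*, 4.26% of *Cyp1a1*, 2.29% of *Cyp1b1* and 1.33% of *Ahrr*. The part of the hepatocyte markers in the *Cyp1a2* value was not tested.

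**Figure D2:**
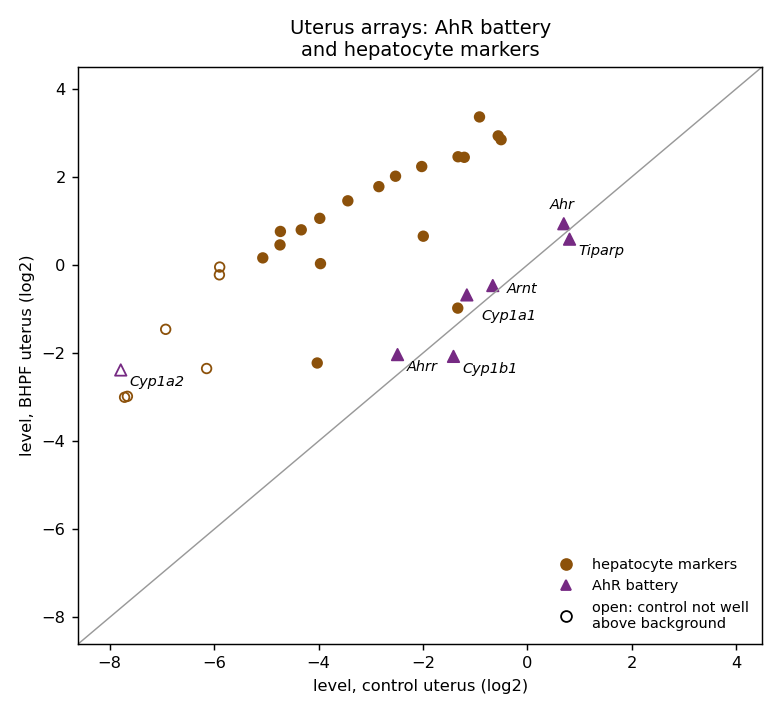
Level on the control uterus array (x axis) against level on the BHPF uterus array (y axis), both log2 relative to the 75th percentile, for the 7 AhR battery genes (triangles) and 24 hepatocyte markers (circles), with the line of equal levels. *Cyp1a2*, at −7.79 and −2.38, lies among the hepatocyte markers, and the other 6 genes of the battery lie near the line, between −0.66 and 0.48 of it. Open symbols were not well above background on the control array.

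*Cyp1b1*, a P450 that works mainly outside the liver and hydroxylates oestradiol as well as polycyclic hydrocarbons, was not higher with BHPF in ovary or uterus. Its levels, control before BHPF, were −3.54 and −3.41 in liver, 2.42 and 2.13 in ovary and −1.42 and −2.08 in uterus. The log2 ratios were 0.12, −0.29 and −0.66. Only the uterine value, 1.58-fold lower with BHPF, was past 2 SD of spot noise, and 5.61% of evaluated uterine genes lay at least as far from 0. Adipocyte markers were lower on the same array, 7 of 7 of them and 3 at least 2-fold (*Adipoq*, *Fabp4* and *Cfd*), with a median of −0.64 and a summed level that went from 4.06 to 1.48. In liver 1 of 7 of them changed 2-fold (*Cfd*, lower). In ovary 2 of 8 changed 2-fold (*Adipoq* and *Cfd*, both higher). There 7 of 8 were above 0, with a median of 0.41, while the ovary ratio of *Cyp1b1* was −0.29. The part of the adipocyte markers in the *Cyp1b1* value was not tested. Smooth muscle and stroma markers in the uterus had a median of −0.05 with 0 of 15 changed 2-fold.

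The receptor itself varied little with BHPF. *Ahr* had levels of 1.95 in control liver and 2.19 in BHPF liver, 0.54 and 0.31 in the ovaries and 0.70 and 0.93 in the uteri. All 3 log2 ratios, 0.24 in liver, −0.23 in ovary and 0.24 in uterus, were within 2 SD of spot noise. The second *Ahr* probe was well above background on no array and was not used.

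*Arnt*, the dimerisation partner that other bHLH-PAS proteins share, was also close to even as a mean over its probes, although the probes differ. The brighter probe read 2.28 and 2.23 in liver, 1.57 and 1.82 in ovary and 1.94 and 2.06 in uterus, control before BHPF. The dimmer probe read −2.44 and −2.02 in liver, −2.14 and −2.09 in ovary and −3.27 and −3.00 in uterus. The liver ratio of the brighter probe, −0.04, was within 2 SD of spot noise, and that of the dimmer probe, 0.42, was past it (2.60 SD). The mean over both probes was 0.19 in liver, 0.15 in ovary and 0.19 in uterus.

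Of the genes that feed back on the receptor, *Ahrr* stood at −4.28 in the control liver and −4.19 in the BHPF liver, at −2.72 and −2.66 in the ovaries and at −2.49 and −2.04 in the uteri. The uterine log2 ratio of 0.45 was past 2 SD of spot noise, and 10.8% of evaluated uterine genes lay as far from 0. The liver and ovary values (0.09 and 0.07) were within it. The second *Ahrr* probe was well above background on no array.

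*Tiparp* leaned the other way. Its first probe had levels of 0.21 and −0.31 in liver, 1.64 and 1.24 in ovary and 0.39 and 0.11 in uterus, and was thus lower on each BHPF array, by 0.52, 0.39 and 0.28 on the log2 scale. The second probe had ratios of −0.05 in liver, 0.14 in ovary and −0.16 in uterus, so the probes differed in sign in ovary. Averaged, *Tiparp* had ratios of −0.28, −0.13 and −0.22, each within 2 SD of the noise of single spots, a wide guide for a mean over 2 probes. The first probe alone was past 2 SD in liver (3.25 SD) and in ovary (2.47 SD).

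Counted over the battery, 0 of 7 genes changed at least 2-fold in liver, where 4.97% of the 15567 evaluated genes did (521 higher and 252 lower). In ovary the count was 0 of 5 beside 1.2% of 16890 genes (89 higher and 114 lower), and in uterus 1 of 7, the bound for *Cyp1a2*, beside 3.22% of 16194 genes (380 higher and 141 lower). The median log2 ratio of the battery was 0.12 in liver, −0.13 in ovary and 0.24 in uterus, beside 0.00, 0.01 and 0.00 over all genes. Of the 19 ratios 14 were within 2 SD of spot noise, and of the 5 beyond it 1 was in liver and 4 in uterus. The limit is that of single spots, also for the means over 2 probes. In liver the median of the battery was −0.19 when arrays were scaled to the 50th percentile, which moves the liver ratio of all genes by −0.32, and −0.18 after quantile normalization, so it has no settled sign.

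**Figure D3:**
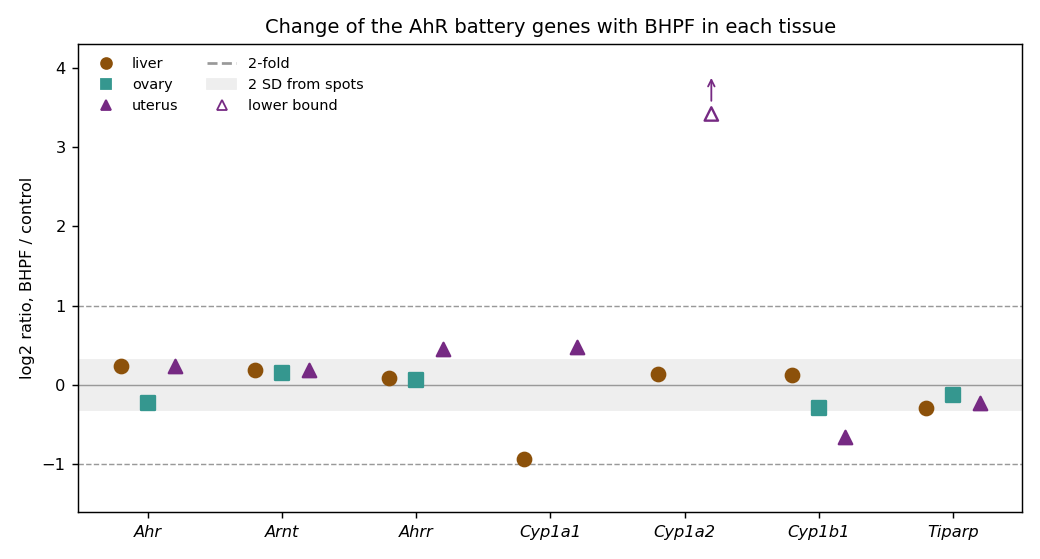
Log2 ratio of BHPF to control (y axis) for each gene of the battery (x axis) in liver, ovary and uterus, 1 ratio of 1 array pair per point. Dashed lines mark 2-fold, the grey band 2 SD from repeated spots, and the open triangle with an arrow a lower bound. *Cyp1a2* in uterus is the only point past 2-fold, and *Cyp1a1* in liver, at −0.93, falls just short of it.

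An effect of BHPF common to the tissues was tested with limma over all 6 arrays, with tissue as a block. It called 0% of the 41535 probes at an adjusted p under 0.05, 0 of the 9 probes of the battery among them, while 2328 probes (5.60%) had an unadjusted p under 0.05. Of the battery 1 probe was among the latter, the first *Tiparp* probe, lower by 0.40 on the log2 scale (limma, SE 0.11, unadjusted p = 0.0218, adjusted p = 0.751). *Cyp1a1* had a common difference of 0.24 (SE 0.44, adjusted p = 0.889) and *Cyp1b1* of −0.28 (SE 0.19, adjusted p = 0.751). The *Cyp1a1* value averages −0.93 in liver, 0.48 in uterus and 1.16 in ovary. The ovary readings in it were not well above background, so the sign of the *Cyp1a1* value is not settled. The fit has 2 residual degrees of freedom, which come from how the ratios differ between the tissues.

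The genes of the battery were also compared between tissues. In the same limma fit 63% of all probes were called between liver and ovary, 56.7% between liver and uterus and 26.6% between ovary and uterus, beside 8 of 9, 5 of 9 and 5 of 9 probes of the battery, so the counts say little about the battery as such. The fit takes the 2 arrays of a tissue as replicates after the treatment term. Without the BHPF uterus array, *Cyp1b1* was the 1 probe of the battery still called between ovary and uterus.

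*Cyp1b1* was an ovarian transcript in these mice, 53.9-fold higher in ovary than in liver (limma, adjusted p = 0.000426) and 16.3-fold higher than in uterus (adjusted p = 0.0019). Uterus in turn exceeded liver 3.31-fold (adjusted p = 0.00531). *Cyp1a1* had another order, at least 20.0-fold higher in liver than in ovary (adjusted p = 0.00211) and at least 34.6-fold higher in uterus than in ovary (adjusted p = 0.00404, or 0.0612 without the BHPF uterus array). These p values test the signals as measured, 52.3-fold and 90.3-fold apart, and not the bounds. The ovary readings in them were not well above background. Liver and uterus did not differ beyond the spread for *Cyp1a1*, with a log2 difference of −0.79 (SE 0.54, adjusted p = 0.275).

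*Cyp1a2* was a liver transcript, at least 1199-fold higher than in ovary (limma, adjusted p = 0.00557) and at least 312-fold higher than in uterus (adjusted p = 0.00978). In uterus 1 of the 2 arrays, the one with raised hepatocyte markers, was well above background. Here too the p values test the signals as measured (2305-fold and 622-fold) and not the bounds. *Ahr* was also highest in liver, 3.14-fold over ovary (adjusted p = 0.00306) and 2.39-fold over uterus (adjusted p = 0.0066), and ovary and uterus did not differ beyond the spread (log2 difference −0.39, adjusted p = 0.183). *Ahrr* ran opposite to *Ahr*, 2.92-fold lower in liver than in ovary (adjusted p = 0.00277) and 3.93-fold lower than in uterus (adjusted p = 0.00163), with no difference beyond the spread between ovary and uterus (adjusted p = 0.129).

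*Tiparp* was highest in ovary by both probes, 2.81-fold and 2.0-fold over liver (adjusted p = 0.00196 and 0.00628) and 2.28-fold and 2.07-fold over uterus (adjusted p = 0.00835 and 0.0131), although without the BHPF uterus array the comparison with uterus had adjusted p values of 0.0679 and 0.106. For *Arnt* the probes gave different orders. The dimmer one was lowest in uterus, by 0.90 against liver (adjusted p = 0.0103) and by 1.02 against ovary (adjusted p = 0.0159), values that lost their call without the BHPF uterus array (adjusted p = 0.0718 and 0.117). The brighter one was higher in liver than in ovary by 0.56 (adjusted p = 0.0294), a difference that was −0.020 after quantile normalization.

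Some genes followed the same course over the arrays. With each gene centred on its own mean over the 6 arrays, *Mcee*, *Hsf4* and *Prh1* lay closest to *Ahr* among 13764 genes, with root mean square differences of 0.067, 0.076 and 0.079 on the log2 scale. *Prkar2b*, a regulatory subunit of protein kinase A, *Amhr2*, the receptor of anti-Müllerian hormone, and *Rbfox1*, a splicing regulator, lay closest to *Cyp1b1* (0.25, 0.25 and 0.36). *Cyp1a1* had no match of that closeness among 15554 genes, the nearest being *Unc93a*, *Gal3st1* and *Sall1* at 0.54, 0.55 and 0.58. Its ovary readings, not well above background, enter these differences, and their part in the lack of a close match was not tested.

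The partners of the receptor were steady. Of 22 genes of the AhR complex and its cofactors, 0 of 21 evaluated in liver and 0 of 22 in ovary and in uterus changed 2-fold, with medians of 0.02, 0.07 and 0.03. The chaperone *Hsp90ab1* had log2 ratios of −0.27 in liver, 0.07 in ovary and 0.07 in uterus, and its relative *Hsp90aa1* of −0.02, 0.08 and 0.11. The coactivator *Crebbp* had ratios of 0.25, 0.31 and 0.18, and the ubiquitin ligase subunit *Ddb1* of −0.03, 0.22 and −0.12.

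Further genes that AhR ligands are known to raise were counted in the same way. In liver 2 of 21 were at least 2-fold higher and 0 lower (median 0.12), beside 4.97% of all genes changed. In ovary 0 of 21 changed (median −0.00), beside 1.2% of all genes, and in uterus the median of the list was 0.09. The liver genes were *Gsta1*, from −0.97 to 0.29 (log2 ratio 1.26), and *Gsta2*, from −0.45 to 0.60 (1.04), which encode glutathione S-transferases so alike in sequence that a probe may read both. Scaling to the 50th percentile moves liver ratios by −0.32, which would put both of them under 2-fold in liver. In ovary *Gsta1* and *Gsta2* had ratios of 0.05 and −0.15 and in uterus of 0.16 and 0.48. The quinone reductase *Nqo1*, often measured beside *Cyp1a1*, had ratios of 0.35 in liver, 0.03 in ovary and 0.08 in uterus, and the glucuronosyltransferase *Ugt1a6a* of 0.12, −0.00 and 0.37.

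Of the genes with the highest levels in this list, *Selenbp1* had ratios of −0.08, 0.21 and 0.07 in liver, ovary and uterus, *Socs2* of −0.07, 0.12 and −0.38, *Cdkn1b* of 0.11, 0.16 and −0.10 and *Nfe2l2*, the antioxidant regulator NRF2, of −0.04, 0.15 and −0.32.

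Target genes of the xenobiotic receptors CAR and PXR were counted for comparison. CAR and PXR are nuclear receptors of hepatocytes that answer to many drugs and pollutants. In liver 1 of 18 changed 2-fold, beside 4.97% of all genes. It was *Cyp2c55*, from −1.43 to −0.09 (log2 ratio 1.34), and the median of the list was 0.22. *Cyp2b10* and *Cyp3a11*, the classical read-outs of CAR and PXR, had liver ratios of 0.45 and −0.18. In ovary 0 of 15 changed, beside 1.2% of all genes (median of the list 0.03). In uterus 10 of 15 were at least 2-fold higher and 0 lower (median 1.58), beside 3.22% of all genes. Among them was *Cyp2c29*, itself one of the hepatocyte markers, at no less than 5.58. *Cyp3a11* stood at 4.06, *Cyp2c38* at 3.96, *Cyp2c37* at no less than 2.58 and *Cyp2b10* at no less than 2.46. On the same BHPF uterus array 23 of 24 hepatocyte markers were at least 2-fold higher (median 4.27). Their part in the CAR and PXR target values was not tested, and these uterine ratios follow the scanner labels.

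The other uterine genes of that list were *Cyp2b13* (2.11), *Cyp3a25* (1.93), *Gstm3* (no less than 1.58), *Nr1i3*, which encodes CAR (1.39), and *Cyp3a13* (no less than 1.38). *Gstm1*, *Por*, *Abcc3* and *Alas1* had uterine ratios of 0.07, 0.32, −0.06 and 0.01.

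**Figure D4:**
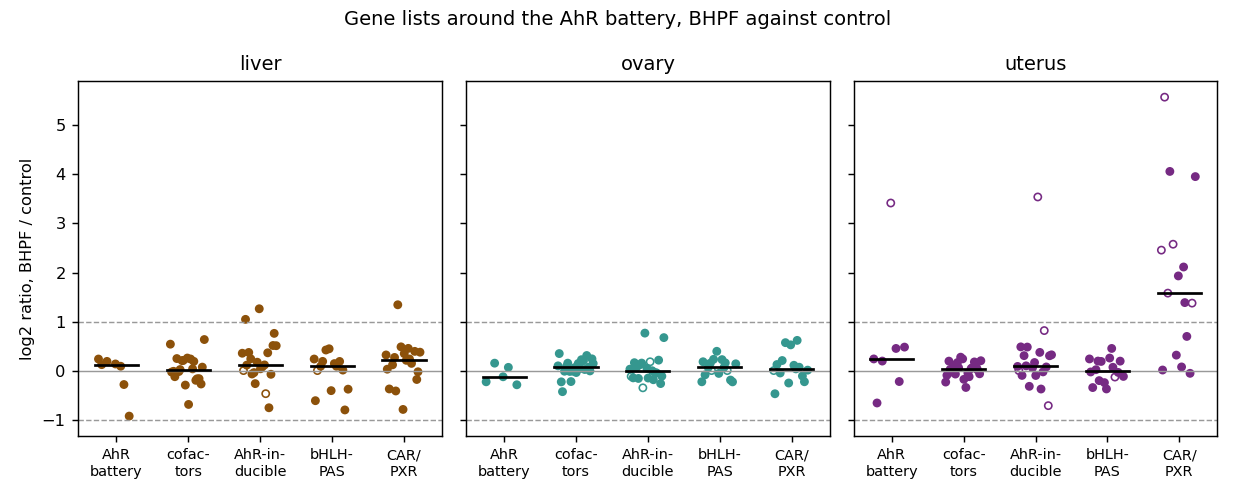
Log2 ratio of BHPF to control (y axis) of each evaluated gene of the AhR battery, the AhR complex and cofactors, further AhR-inducible genes, the bHLH-PAS family and CAR and PXR target genes in liver, ovary and uterus, 1 point per gene with the median as a bar, open points for bounds and dashed lines at 2-fold. The medians lie between −0.13 and 0.24 except for CAR and PXR targets in uterus (1.58).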

How the data were processed

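RNA of liver, ovary and uterus was hybridized to 6 one-colour Agilent mouse 8 × 60K arrays, 1 per tissue and treatment, on 1 slide read in 1 scan. Groups come from the sample titles. The authors read the spots in Agilent Feature Extraction (11.5.1.1 in the file headers, 9.1 in the submitters' processing notes) and deposited the intensity of each spot, background-subtracted and on a linear scale, without scaling between arrays. A second deposited file holds log2 values after a percentile shift in GeneSpring. Compared with the scanner files, the 2 uterus columns of that table held each other's array (99.1% of values within 0.001). The scanner files were used under their own labels, without settling which labels are right.

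Control spots and outlier spots were left out, spots of a probe were averaged on the log2 scale, and the 75th percentile of the array was subtracted. Within a tissue, ratios were formed for probes whose signal passed the well-above-background call on either array. Where it was well above background on 1 only, the ratio was taken against the dimmest well-above-background signal of the other array, or the probe's own signal there if higher, and is a bound. Probes of a gene were averaged. Transcript identifiers were matched to RefSeq symbols for 26762 of 55681 probes (48.1%). Tissue and common treatment effects were fitted with limma 3.58.1 (R 4.3.3) on probes well above background on at least 2 arrays, with Benjamini-Hochberg adjustment over all 41535 probes. The fits were checked on simulated data. The residual is how treatment ratios differ between the tissues, which can share animals, so these p values do not measure the spread between animals.

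All 7 genes are reported with every probe. From the other lists the genes changed at least 2-fold and the 4 of highest mean level are named. A result on the further AhR-inducible genes in uterus that this rule selects is not reported here. The members and lists were chosen with earlier results of these data known. Alternatives covered the background correction (normexp with an offset of 50, run on the median spot signal because no mean signal is in the files), the scaling, the deposited table, the bound, the probe used for a gene, the filter on dim probes, a threshold of 1.5-fold and leaving out arrays. The alternatives with the uterus columns exchanged and without the BHPF uterus array were added after seeing the data. The number of arrays limits the precision.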

Additional observations from a re-analysis of the deposited data

Results flagged for a closer look

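*Cyp1a1* differed in direction between tissues under the labels of the scanner files. Its log2 ratio of BHPF to control was −0.93 in liver and 0.48 in uterus, so that the uterine ratio exceeded the liver ratio by 1.41, and with 1 array pair per tissue the difference was not tested. Over the settings tried on the scanner values and on the table with its uterus columns exchanged, the liver ratio ranged from −1.24 to −0.76 and the uterine ratio from 0.40 to 0.57. With the uterus columns of that table as headed, the uterine ratio is −0.48, and the opposite sign is lost.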

How the results depend on the processing

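With 1 array per group, no member ratio has a replicate check, and slide row and treatment coincide. The limma fit of the common effect takes tissue as a block and so pairs the control and BHPF arrays. Within a tissue no paired analysis was possible because each group holds 1 array. In liver the count of battery genes past the threshold was 1 (*Cyp1a1*, at −1.24) with the 50th percentile, which moves all liver ratios by −0.32, and 1 (*Cyp1a1*) at 1.5-fold, and the liver median was −0.19 with the 50th percentile and −0.18 with quantile normalization. In ovary the median was 0.065 with the brightest probe of each gene and 0.11 with no filter on dim probes, where the count was 1 (*Cyp1a1*, well above background on neither array). In uterus the count was 2 at 1.5-fold (*Cyp1a2* and *Cyp1b1*), and the median was 0.50 with normexp and −0.24 in the deposited table with columns as headed, where all 7 uterine ratios change sign and *Cyp1a2* reads −5.40, because the uterus columns hold each other's array. Of the 19 member ratios 11 kept their sign over the settings on scanner values and on the table with its uterus columns exchanged, and the other 8 did not. These were *Ahr*, *Ahrr*, *Arnt*, *Cyp1a2* and *Cyp1b1* in liver and *Ahr*, *Arnt* and *Tiparp* in ovary. *Cyp1b1* in uterus stayed between −0.74 and −0.65 and *Cyp1a2* in uterus between 3.32 and 5.40. Between tissues, the brighter *Arnt* probe gave a liver minus ovary difference of −0.020 after quantile normalization. Without the BHPF uterus array 13928 probes were called between liver and uterus and 2802 between ovary and uterus, with 1 probe of the battery in the latter (*Cyp1b1*), and the lone uterus array is then assumed to vary like the other tissues. For the other moved values the cause was not tested. The common effect of BHPF had 0 probes called under every setting run, leaving out a tissue included.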

Other observations

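The bHLH-PAS family, which shares its DNA-binding and dimerisation domains with the AhR, held no gene that changed at least 2-fold, 0 of 14 evaluated in liver, 0 of 16 in ovary and 0 of 16 in uterus, beside 4.97%, 1.2% and 3.22% of all genes, with medians of 0.09, 0.06 and −0.01. The counts include *Ahr*, *Ahrr* and *Arnt*, already counted in the battery, and *Arnt2*, counted with the cofactors, where they were evaluated. In liver the clock members of the family were spread on both sides of 0. *Arntl*, the core clock activator, went from −1.31 to −2.12 (log2 ratio −0.80), its partner *Clock* had a ratio of −0.41, and the clock repressors *Per1*, *Per2* and *Per3* had ratios of 0.01, 0.44 and −0.61. *Arntl* had ratios of −0.06 in ovary and −0.37 in uterus. The hypoxia factor *Hif1a* had ratios of −0.38 in liver, 0.06 in ovary and 0.02 in uterus.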
